A study of Mus musculus with 18 samples.

Results

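The genes described here are 52 of phosphoinositide and inositol phosphate metabolism: kinases with their regulatory subunits, phosphatases and phospholipases C. They were chosen by gene symbol from a fixed list, with no filter on their values, though earlier results of these data were known. All 52 were found, each with 1 transcript cluster annotated to that symbol alone, out of 19938 genes with such a cluster on the array. They include Pip4k2b, the gene against which the short hairpin RNA (shRNA) of the study was directed, and both of its paralogues, Pip4k2a and Pip4k2c. RNA was measured in C2C12 cells, a mouse myoblast line that withdraws from the cell cycle and fuses into myotubes when serum is lowered. All cells, controls included, had been depleted of endogenous TAF3 and rescued with a murine TAF3 carried by a retrovirus. One rescue construct was wild type (WT-TAF3), and the other was KK-TAF3, a mutant whose PHD finger no longer binds phosphoinositides but still binds trimethylated lysine 4 of histone H3. The 6 groups of 3 arrays were WT-TAF3 cells, WT-TAF3 cells depleted of PIP4K2B and KK-TAF3 cells depleted of PIP4K2B, each after 2 days of differentiation in low serum and each after 7 hours of etoposide at 10 µM, an inhibitor of topoisomerase II that breaks DNA. Per the study's text the sh-PIP4K2B construct was lentiviral, the cells were stable selected populations, and the WT-TAF3 cells without it carried a control shRNA, which the labels do not name; they serve as the control below. KK-TAF3 cells without sh-PIP4K2B were not among the groups, and there was no untreated group, so etoposide and differentiation could be compared only with each other. The sample labels give 2 days of differentiation where the series' design text gives 3, and the labels are followed here.

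Phosphoinositides are phosphorylated forms of phosphatidylinositol, a membrane lipid whose inositol ring can carry phosphates at positions 3, 4 and 5. Kinases and phosphatases interconvert the forms, and phospholipases C cleave the form phosphorylated at positions 4 and 5. The products are inositol trisphosphate, which releases calcium, and diacylglycerol, which activates protein kinase C. PIP4K2B and its paralogues phosphorylate PI5P at position 4 and so lower its amount, and part of PIP4K2B resides in the nucleus. In muscle, phosphoinositide 3-kinase relays insulin and growth factor signals to fusion and growth, and the myotubularins take their name from a muscle disease caused by loss of Mtm1.

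The deposited values are log2 signals after robust multi-array averaging (RMA), and differences between groups are given on that log2 scale with the standard error (SE) of the difference. A gene was called where the Benjamini-Hochberg adjusted p of limma over all 19938 genes was under 0.05 and the change was above 1.4-fold. Arrays of a group correlated at 0.990 to 0.997 over all clusters, with array medians of 7.25 to 7.46. Within groups a gene's SD had a median of 0.0694 to 0.0730 among differentiated arrays and 0.0952 to 0.137 among etoposide arrays, which were thus the noisier. A gene's spread was estimated once over all 18 arrays, so its SE does not reflect this difference between treatments. SEs may thus be too small after etoposide and too large after differentiation. Mean log2 signals of 12 myoblast and muscle markers ran from 6.34 (Mef2c) to 13.00 (Des), with Des, Chrna1, Myf5 and Cdh15 all above 11. Those of 7 leukocyte markers ran from 5.65 to 8.42 (Cd14), of 6 fat cell markers from 5.43 to 8.36, of 6 endothelial markers from 5.01 to 7.48 and of 6 nerve cell markers from 6.54 to 9.42, with Ptprc at 6.08, Pecam1 at 6.41 and Adipoq at 5.43. The log2 signals of the muscle markers summed to 114 in differentiated control cells, 117 to 118 in WT-TAF3 sh-PIP4K2B cells and 111 to 112 in KK-TAF3 sh-PIP4K2B cells, and to 110 to 112 in all etoposide groups. Single muscle markers went both ways: between treatments in control cells Acta1, Myh3, Mymk, Myog and Tnnt3 were called lower after etoposide and Des and Myf5 higher. Nerve cell markers summed to 45.50 to 46.35 on differentiated arrays and 47.80 to 48.79 on etoposide arrays, and leukocyte markers to 46.52 to 47.61 and 47.33 to 48.20. Leukocyte, fat cell and endothelial sums overlapped between the treatments. These marker levels moved with the groups, and their part in the results below was not tested; nor can fewer cells of a type be told apart from less RNA per cell in such bulk samples.

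Signals of the 52 genes averaged between 5.66 (Pip5k1b, a PI4P 5-kinase) and 11.6 (Inpp5k, a 5-phosphatase abundant in skeletal muscle), and 43 lay above the median of all genes, 7.97. Probes differ in affinity, so these signals do not rank the transcripts. Among the kinases the means ran from 10.07 for Pip4k2b to 11.5 for Pip4k2c in the PI5P 4-kinases, up to 11.0 for Pip5k1a in the 5-kinase group, and from 8.89 for Pi4k2b to 11.4 for Pi4kb in the PI 4-kinases. The PI 3-kinase catalytic subunits spanned 6.36 for Pik3cg, known from leukocytes, to 11.3 for Pik3ca, the p110alpha subunit present in most cells. Regulatory subunits lay between 9.68 (Pik3r4) and 10.9 (Pik3r2). Among the phosphatases the lowest and highest signals were 5.89 for Inpp4b and 9.16 for Inpp4a, 6.89 for Inpp5d and 11.6 for Inpp5k, 9.13 for Inpp5f and 11.0 for Fig4 in the Sac domain group, and 6.48 for Mtm1 and 10.9 for Mtmr3 in the myotubularins. Phospholipases C ran from 6.14 (Plce1) to 11.4 (Plcb3). No detection call was used here, so whether the dimmest members were expressed was not tested.

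Pip4k2b, at chr11:97715157-97744704 of GRCm38.p6, was lower on every array with sh-PIP4K2B than on every control array of the same treatment. Differentiated control cells gave log2 signals of 10.69, 10.69 and 10.68, WT-TAF3 sh-PIP4K2B cells gave 9.46, 9.64 and 9.55, and KK-TAF3 sh-PIP4K2B cells gave 9.90, 9.83 and 9.84. After etoposide the same 3 genotypes gave 10.75, 10.71 and 10.48, then 9.92, 9.74 and 9.63, then 10.02, 10.10 and 9.69. In differentiated WT-TAF3 cells the fall was the largest of all 19938 genes and left 45.3% of the control signal (log2 -1.14, SE 0.10, adjusted p = 1.78e-06). The share left was 54.2% in WT-TAF3 cells after etoposide, 56.1% in differentiated KK-TAF3 cells and 61.1% in KK-TAF3 cells after etoposide, where the fall ranked 14th, 18th and 19th. Differentiated KK-TAF3 cells kept a signal 0.31 above that of WT-TAF3 cells with the same shRNA, with no overlap between arrays, but this did not pass the adjusted test (SE 0.10, adjusted p = 0.255, 95% interval 0.10 to 0.52). The fall of Pip4k2b was called in all 4 comparisons with the control and under every alternative run.

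The paralogues did not follow the target. Pip4k2a read 11.38, 11.47 and 11.47 in differentiated control cells and 11.59, 11.61 and 11.65 with sh-PIP4K2B, and after etoposide 11.24, 11.21 and 11.19 and 11.18, 10.86 and 11.06. Its arrays with the shRNA thus lay above the controls after differentiation and below them after etoposide, by 0.18 (95% interval 0.03 to 0.32, adjusted p = 0.117) and -0.18 (-0.32 to -0.03, adjusted p = 0.209), neither of which was called. In differentiated KK-TAF3 sh-PIP4K2B cells Pip4k2a read 11.69, 11.71 and 11.68, a difference of 0.25 from the control that passed the adjusted test (SE 0.07, adjusted p = 0.033) but stayed under 1.4-fold. Pip4k2c stayed between 11.35 and 11.66 on all 18 arrays. For Pip4k2c the intervals of the depletion effect were -0.11 to 0.20 after differentiation and -0.08 to 0.22 after etoposide.

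**Figure D1:**
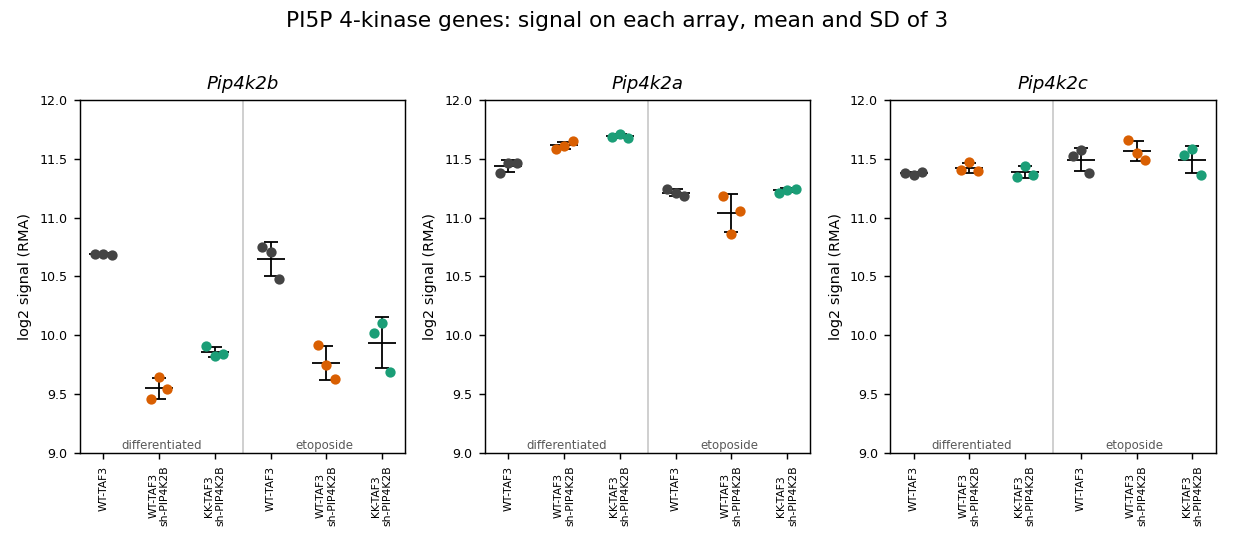
Log2 RMA signal of the 3 PI5P 4-kinase genes on each of the 18 arrays, with differentiated cells on the left and etoposide-treated cells on the right of each panel; points are arrays, and bars are the mean and SD of 3. Pip4k2b lies at 10.48 to 10.75 in control arrays and at 9.46 to 10.10 in all arrays with sh-PIP4K2B, while Pip4k2a and Pip4k2c show no such step.

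The question of the first comparison was which other members changed when PIP4K2B was depleted in cells with WT-TAF3. In differentiated cells 2 of the 52 were called, Pip4k2b itself and Pik3r3, beside 1.06% of all genes. Pik3r3 encodes p55gamma, a regulatory subunit that couples PI 3-kinase to activated receptors. It read 9.60, 9.69 and 9.85 in control cells and 10.29, 10.49 and 10.28 with sh-PIP4K2B, a rise of 0.64 or 1.56-fold (SE 0.09, adjusted p = 0.000265). All depleted arrays lay well above all control arrays. In KK-TAF3 sh-PIP4K2B cells Pik3r3 read 10.03, 9.95 and 9.98, between the other groups, 0.28 above the control (SE 0.09, adjusted p = 0.0567) and -0.37 from WT-TAF3 sh-PIP4K2B cells (SE 0.09, adjusted p = 0.0537), neither of them called.

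A further 3 members passed the adjusted p in differentiated cells with changes under 1.4-fold, which made 5 of 52 with no fold limit, beside 6.14% of all genes. The first, Pik3cb, is the p110beta catalytic subunit of PI 3-kinase. It read 9.15, 9.23 and 9.25 in controls and 9.53, 9.79 and 9.56 after depletion, a difference of 0.42 (SE 0.09, adjusted p = 0.0118). Pi4k2b, a type II PI 4-kinase, read 8.64, 8.57 and 8.56 and 8.94, 8.95 and 8.90 (0.34, SE 0.08, adjusted p = 0.0239). Plcd3, a phospholipase C of the delta class, differed by 0.21 (SE 0.06, adjusted p = 0.0496). In all 3 genes every depleted array exceeded every control array, and Pik3cb was called with centring. Over the 52 members the median difference was 0.063 against -0.024 for all genes. The depleted arrays all lay above the controls for 23 members, 44.2% beside 21.8% of all genes, and all below for 4 members, 7.69% beside 22.7%. When array medians entered the fit as a covariate, the members' median turned to -0.022, with all genes at -0.0006. Centring the arrays on their medians instead gave 0.16, with all genes at 0.073. The direction of this small shift thus turned with the covariate but not with centring. Medians of the control arrays lay at 7.35 to 7.41 and those of the WT-TAF3 sh-PIP4K2B arrays at 7.25 to 7.33, without overlap. Array median and depletion thus went together in this comparison, and the covariate cannot fully separate them.

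The 4 promoter windows that follow belong to Pik3r3 and Plcg2, the members called on depletion beside Pip4k2b, and to Plcb4 and Pik3r1, the 2 members called lower after etoposide in every genotype. They were picked after their values were seen, and are shown because TAF3 is a subunit of TFIID, the complex that recognises core promoters. Each covers 250 bases before to 50 bases after a start site in RefSeq on GRCm38.p6, 5′ to 3′ on the gene's strand. Capitals mark TATAAA or CCAAT on either strand, that is also TTTATA or ATTGG. Pik3r3 (chr4:116221166-116221465, plus strand) has 3 start sites listed, and the first, shown here, holds CCAAT in each orientation. Plcg2 (chr8:117498025-117498324, plus strand), Plcb4 (chr2:135659297-135659596, plus strand) and Pik3r1 (chr13:101692581-101692880, minus strand) are given likewise. Plcb4 and Pik3r1 each have 2 windows, and the one of lower coordinate is shown. For Pik3r1, on the minus strand, this is an internal start and not the one at the 5′ end of the gene. The window at its 5′ end (chr13:101768168-101768467) holds ATTGG and neither TATAAA nor TTTATA.
Pik3r3: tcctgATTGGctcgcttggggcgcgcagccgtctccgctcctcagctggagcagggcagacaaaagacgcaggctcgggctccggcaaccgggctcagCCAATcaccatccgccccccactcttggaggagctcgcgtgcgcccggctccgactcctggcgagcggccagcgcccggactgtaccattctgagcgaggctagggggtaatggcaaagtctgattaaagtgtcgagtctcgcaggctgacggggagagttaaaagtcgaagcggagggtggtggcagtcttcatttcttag
Plcg2: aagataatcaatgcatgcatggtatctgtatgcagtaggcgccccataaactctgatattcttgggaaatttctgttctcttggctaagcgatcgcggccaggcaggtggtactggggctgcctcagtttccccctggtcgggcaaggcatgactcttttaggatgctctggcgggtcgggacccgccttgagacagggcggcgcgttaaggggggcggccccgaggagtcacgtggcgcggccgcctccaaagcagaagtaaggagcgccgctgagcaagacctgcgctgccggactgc
Plcb4: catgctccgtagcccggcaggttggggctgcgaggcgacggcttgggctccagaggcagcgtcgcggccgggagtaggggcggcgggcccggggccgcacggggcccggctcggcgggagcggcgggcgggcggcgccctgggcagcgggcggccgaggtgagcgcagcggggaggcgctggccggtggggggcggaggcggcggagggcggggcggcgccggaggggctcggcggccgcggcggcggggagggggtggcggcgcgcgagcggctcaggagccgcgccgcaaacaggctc
Pik3r1: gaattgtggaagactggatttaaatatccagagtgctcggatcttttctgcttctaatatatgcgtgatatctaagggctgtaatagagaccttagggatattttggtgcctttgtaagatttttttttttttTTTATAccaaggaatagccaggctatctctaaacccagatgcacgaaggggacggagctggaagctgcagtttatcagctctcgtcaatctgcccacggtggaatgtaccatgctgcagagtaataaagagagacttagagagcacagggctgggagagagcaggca
The Pik3r1 window shown, at the internal start, holds 1 match to TTTATA, and the windows shown for Plcg2 and Plcb4 hold neither motif. Of the 52 members 46 had at least 1 window, 67 in all. TATAAA or its complement occurred in 3 of the 67, 4.48%, beside 13.6% of all 32851 windows, and CCAAT in 24, 35.8%, beside 37.4%. The median GC content was 61.3% in the members and 52.7% in all windows. Among the 20 windows of the 14 members called anywhere in this report that had one, 1 held TATAAA and 8 held CCAAT, and among the 47 windows of the others 2 and 16 did. A match to these letters is a description of the window and not a mapped binding site.

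After etoposide 2 of the 52 members were called on depletion of PIP4K2B, both lower, beside 0.868% of all genes: Pip4k2b and Plcg2. With only the groups compared in the fit, both were still called, beside 0.497% of all genes. Plcg2 encodes a phospholipase C that is activated by tyrosine kinases and is best known from blood cells. Control cells read 8.96, 8.94 and 8.63 and depleted cells 8.31, 8.24 and 7.96, a fall of 1.6-fold (-0.67, SE 0.12, adjusted p = 0.00216) with no overlap between the groups. In differentiated cells, where the signal was lower throughout, it read 7.99, 7.80 and 7.80 and 7.58, 7.56 and 7.65, a difference of -0.26 that was not called (SE 0.12, adjusted p = 0.15). KK-TAF3 sh-PIP4K2B cells after etoposide gave 8.51, 8.59 and 8.13, -0.44 from the control, which passed the adjusted p but not 1.4-fold (SE 0.12, adjusted p = 0.0475). Plcb4, a phospholipase C driven by Gq-coupled receptors, also passed the adjusted p alone (3 of 52 with no fold limit, beside 3.15% of all genes), at -0.38 (SE 0.10, adjusted p = 0.0429). Its depleted arrays, 9.97, 9.69 and 9.59, overlapped the controls, 10.20, 10.24 and 9.94. Over all 52 members the median difference was -0.059 against 0.024 for all genes, and remained negative with either alternative scaling, at -0.021 and -0.11.

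**Figure D2:**
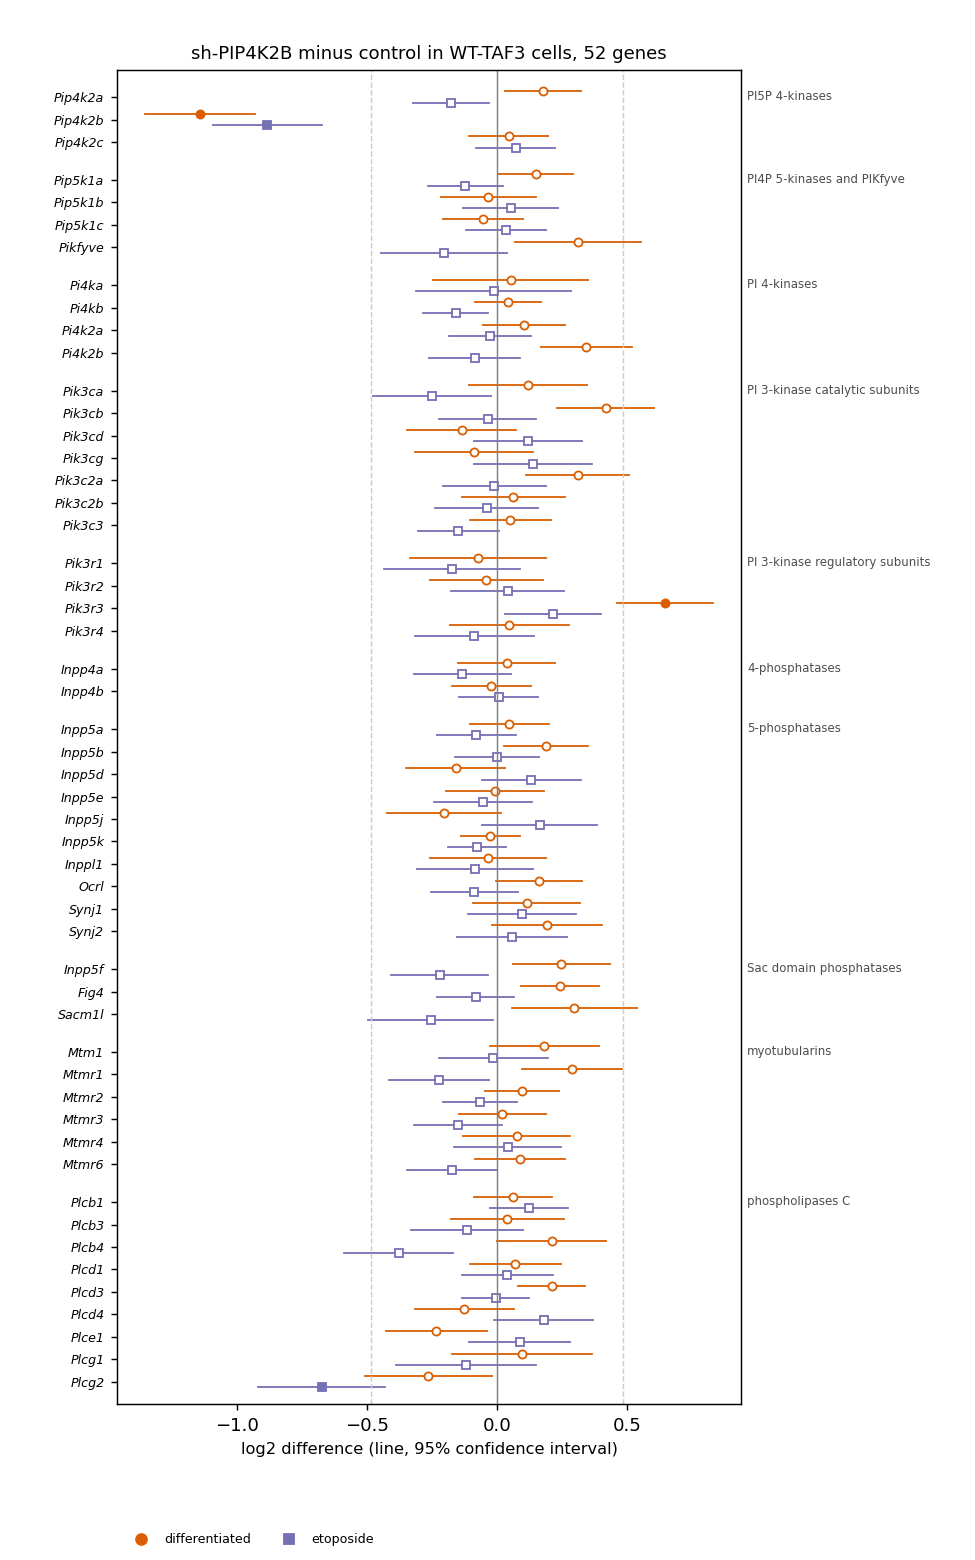
Difference in log2 signal between WT-TAF3 sh-PIP4K2B and WT-TAF3 control cells for each of the 52 genes, grouped by role, in differentiated (circles) and etoposide-treated cells (squares); lines are 95% confidence intervals, filled symbols are called genes and dashed lines mark 1.4-fold. Pip4k2b stands apart on the left in both, with Pik3r3 filled on the right in differentiated cells and Plcg2 filled on the left after etoposide.

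The comparison of KK-TAF3 with WT-TAF3 in cells that both carried sh-PIP4K2B asked whether phosphoinositide binding by TAF3 bore on these genes. By limma 0 of the 52 members were called in differentiated cells, beside 0.517% of all genes, and 0 after etoposide, beside 0.406%. Fits of only the groups compared gave 0 as well, beside 0.476% and 0.130% of all genes. The counts were also 0 with an unadjusted p and 1.4-fold, which 0.617% and 0.532% of all genes passed. Without a fold limit, 3 members had an unadjusted p under 0.05 in differentiated cells (7.19% of all genes), Pip4k2b and Plcg2 higher and Pik3r3 lower, and 7 did after etoposide (15.3% of all genes). In differentiated cells all KK-TAF3 arrays lay below all WT-TAF3 arrays for 21.2% of members, beside 8.07% of all genes, and above for 13.5%, beside 12.9%. After etoposide the shares were 3.85% below, beside 3.90%, and 1.92% above, beside 6.89%. The largest differences were -0.37 for Pik3r3 (95% interval -0.55 to -0.18) in differentiated cells and 0.36 for Sacm1l, a PI4P phosphatase of the endoplasmic reticulum (0.12 to 0.60, adjusted p = 0.184), after etoposide. Across all 52 members SEs ran from 0.0536 to 0.142. No member was called where the KK-TAF3 effect was compared between treatments either, beside 0.150% of all genes. This count was also 0 at an unadjusted p with 1.4-fold (0.717% of all genes), and 2 members had an unadjusted p under 0.05 with no fold limit (6.48%). In the same differentiated samples 5 of the 12 muscle markers were called lower in KK-TAF3 cells, beside 0.216% of all genes, and 9 of the 12 had a lower mean. Among the 5 was Mymk, the fusion protein myomaker (-1.57, SE 0.11, adjusted p = 6.46e-08). The study had already reported Myog, Mymk (as Tmem8C), Acta1 and Ckm as suppressed in KK-TAF3 cells, and the markers were chosen with earlier results known. The marker count is therefore no independent contrast to that of the members.

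Set against the control, KK-TAF3 sh-PIP4K2B cells had Pip4k2b as the 1 member called, in differentiated cells (1 of 52 beside 1.26% of all genes) and after etoposide (1 of 52 beside 1.15%). These comparisons use the same control arrays as those above. With no fold limit 3 of the 52 passed after differentiation (8.66% of all genes) and 3 after etoposide (3.09%). In differentiated cells these included Pi4k2b and Pip4k2a. Pi4k2b read 8.94, 8.87 and 8.91 against 8.64, 8.57 and 8.56, 0.32 higher (SE 0.08, adjusted p = 0.0262), close to its 0.34 in WT-TAF3 cells. After etoposide Pi4kb, the Golgi PI 4-kinase, read 11.22, 11.31 and 11.26 against 11.52, 11.49 and 11.62 in the control, -0.28 (SE 0.06, adjusted p = 0.0102), without overlap.

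The depletion difference of many members had opposite signs in the 2 treatments, and the difference between its effects was tested as an interaction. It was more negative after etoposide than after differentiation for 3 of the 52 members past both thresholds, 5.77% beside 4.02% of all genes in either direction and 2.07% in this one: Plcb4, Sacm1l and the myotubularin Mtmr1. Plcb4 read 10.76, 10.68 and 10.69 in differentiated control cells and 10.87, 10.99 and 10.90 on depletion, above every control, where after etoposide its mean was lower on depletion. The interaction for Plcb4 was -0.59 (SE 0.14, adjusted p = 0.0271). Sacm1l read 10.05, 10.14 and 10.10 and 10.38, 10.50 and 10.30 after differentiation but 9.79, 9.87 and 10.02 and 9.77, 9.28 and 9.86 after etoposide, with an interaction of -0.55 (SE 0.16, adjusted p = 0.049). One depleted etoposide array, at 9.28, lay far below the other two. Mtmr1, a PI3P phosphatase related to Mtm1, read 9.33, 9.31 and 9.42 and 9.67, 9.72 and 9.54 after differentiation and 9.12, 8.92 and 8.86 and 8.94, 8.61 and 8.68 after etoposide (-0.51, SE 0.13, adjusted p = 0.0335).

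With no fold limit the interaction passed for 8 members, all negative: beside those 3, Inpp5f (-0.47), Pik3cb (-0.45), Pi4k2b (-0.43), Pik3r3 (-0.43) and Pip4k2a (-0.35), beside 6.67% of all genes. Over all 52 members 29 were higher after differentiation and lower after etoposide on depletion, 10 the reverse, 7 higher in both and 6 lower in both. This split was not counted for all genes. The median interaction was -0.15 for the members and 0.041 for all genes. The array median as a covariate brought it to 0.011 and left 0 members called, with 0.481% of all genes. Centring brought the members' median to -0.29 and gave 9 members called, with 6.80% of all genes. Leaving out single arrays gave 0 to 9 members, with 0.903% to 13.4% of all genes. Testing every transcript cluster left 0, with 0.771%. The interaction counts of the members and of all genes thus both depended on the scaling and on single arrays. Of the 12 muscle markers 4 had a called negative interaction as well, Tnnt3 the largest (-0.99, SE 0.10, adjusted p = 2.29e-05), and their part in the members' values was not tested.

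**Figure D3:**
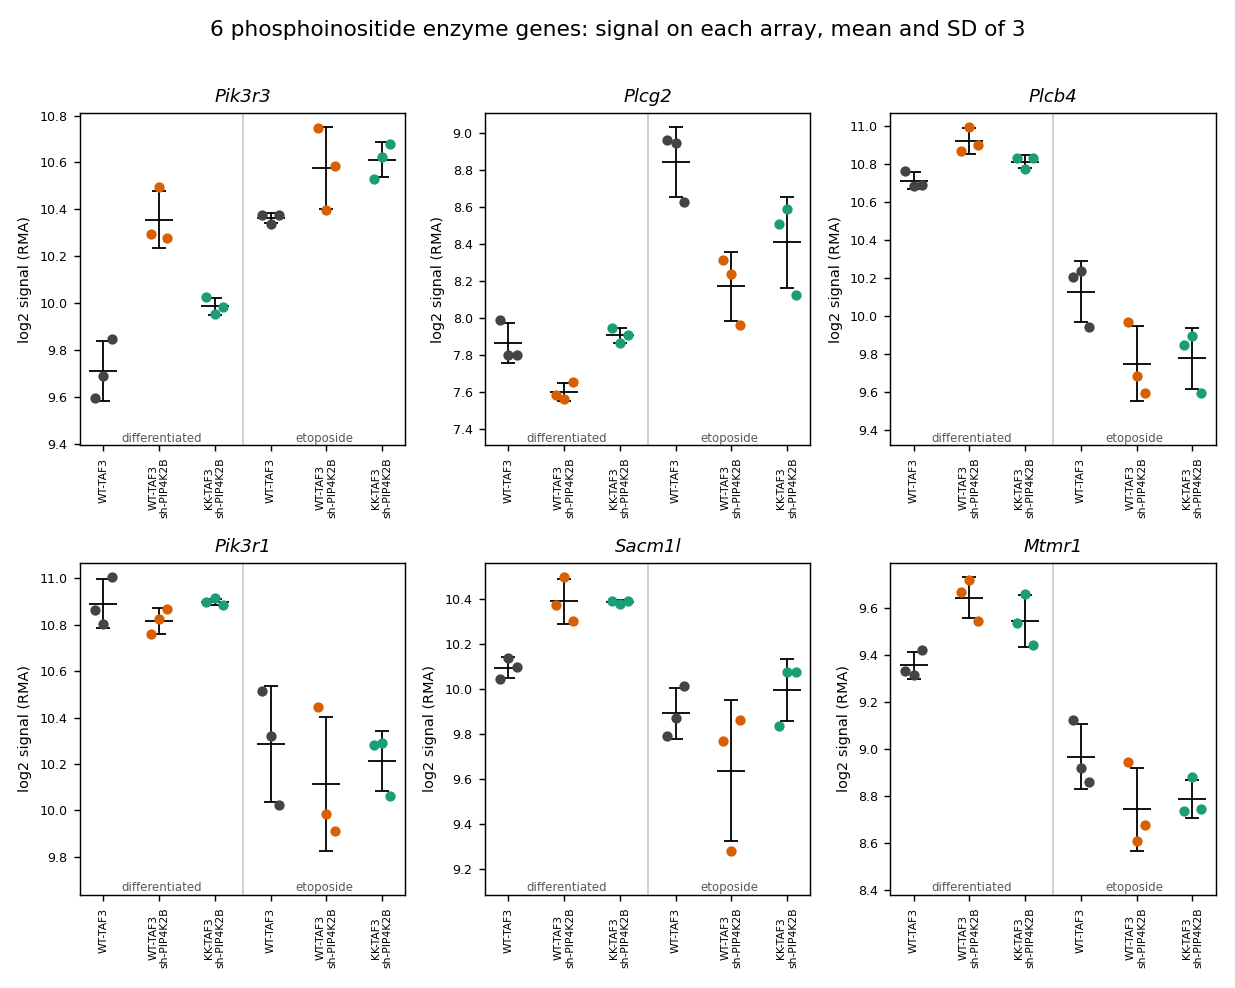
Log2 RMA signal on each of the 18 arrays for 6 genes called in a depletion comparison, in its interaction with treatment or in every comparison of treatments; points are arrays, bars are the mean and SD of 3, and each panel has its own axis. Pik3r3 rises from control to WT-TAF3 sh-PIP4K2B in differentiated cells, Plcg2 is lower with sh-PIP4K2B after etoposide, and Plcb4, Sacm1l and Mtmr1 lie slightly higher with sh-PIP4K2B after differentiation and lower in mean with it after etoposide in WT-TAF3 cells.

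Etoposide-treated cells were next set against differentiated cells of the same genotype, a contrast that also changes the serum and the time in culture. In control cells 5 of the 52 members were called, 9.62% beside 7.63% of all genes. Of these 3 were higher and 2 lower, with 4.71% and 2.92% of all genes called in these directions. In WT-TAF3 sh-PIP4K2B cells 14 members were called, 26.9% beside 9.95% of all genes, 4 of them higher (3.64% of all genes) and 10 lower (6.30%). In KK-TAF3 sh-PIP4K2B cells the count was 8, 15.4% beside 8.33%, with 4 higher (3.52% of all genes) and 4 lower (4.81%). With no fold limit the adjusted p passed for 15, 26 and 26 members in the same order of genotypes, beside 23.1%, 34.7% and 25.4% of all genes. In all 15 members were called in at least 1 genotype, 5 of them higher and 10 lower, and none was called in opposite directions. Plcg2, Plcd1, Plcb4 and Pik3r1 were called in every genotype. Such tallies across genotypes were not made for all genes, so they cannot be read as particular to the members. The larger count in WT-TAF3 sh-PIP4K2B cells, which fell to 8 with the array median as a covariate (4 higher, 4 lower), is not itself a test between genotypes. That test is the interaction above.

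Phospholipases C supplied 3 of these 4 genes and moved both ways. Plcg2 rose in control cells from 7.99, 7.80 and 7.80 to 8.96, 8.94 and 8.63, by 0.98 or 1.97-fold (SE 0.12, adjusted p = 4e-06), the largest change among the members in that genotype. Its rise was 0.57 in WT-TAF3 sh-PIP4K2B cells and 0.50 in KK-TAF3 sh-PIP4K2B cells, both called. Centring the arrays on their medians brought these to 0.46 and 0.44 and ended both calls. Plcd1, a calcium-sensitive phospholipase C, went from 10.37, 10.25 and 10.22 to 10.97, 11.03 and 10.96 in control cells (0.71, SE 0.08, adjusted p = 3.84e-06) and rose by 0.67 and 0.52 in the depleted genotypes. In KK-TAF3 sh-PIP4K2B cells the calls of Plcg2 and Plcd1 were lost without the first etoposide array (0.45 and 0.48) or the second (0.41 and 0.45), and that of Plcg2 also without the second differentiated array (0.48). Plcb4 fell from 10.76, 10.68 and 10.69 to 10.20, 10.24 and 9.94 in control cells (-0.58, SE 0.10, adjusted p = 0.000219). In WT-TAF3 sh-PIP4K2B cells its fall was 2.25-fold (-1.17, SE 0.10, adjusted p = 5.21e-08), and in KK-TAF3 sh-PIP4K2B cells it was 2.05-fold (-1.04). The dim Plcd4 was called in WT-TAF3 sh-PIP4K2B cells and in neither other genotype (0.53, SE 0.09, adjusted p = 0.000176), with signals of 6.40, 6.57 and 6.46 and 7.13, 6.98 and 6.91, a call lost without its first etoposide array (0.47) and with centring. In KK-TAF3 sh-PIP4K2B cells Plcd4 passed the adjusted p under 1.4-fold. Plcd3 passed the adjusted p in control cells at 0.45 but stayed under 1.4-fold, and was called there with centring. Plcb1, Plcb3, Plce1 and Plcg1 were called in no genotype.

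Among the PI 3-kinase subunits the regulatory pair Pik3r1 and Pik3r3 went in opposite directions. Pik3r1 encodes p85alpha, the main regulatory subunit of the class I enzymes. In control cells it fell from 10.86, 10.80 and 11.01 to 10.52, 10.32 and 10.02, by 1.52-fold (-0.60, SE 0.12, adjusted p = 0.00136), a call lost without the third etoposide array, and in the depleted genotypes it fell by 0.70 and 0.69 on the log2 scale. Pik3r3 rose from 9.60, 9.69 and 9.85 to 10.37, 10.34 and 10.38 in control cells (0.65, SE 0.09, adjusted p = 1.79e-05) and by 0.62 in KK-TAF3 sh-PIP4K2B cells. In WT-TAF3 sh-PIP4K2B cells, whose differentiated arrays already read 10.29, 10.49 and 10.28, its etoposide arrays read 10.75, 10.40 and 10.58, a difference of 0.22 that was not called (SE 0.09, adjusted p = 0.0586). Pik3r2 and Pik3r4 were called in no genotype, though Pik3r2, lower after etoposide, passed in KK-TAF3 sh-PIP4K2B cells with centring or without any of 3 single arrays, and in control cells without the second etoposide array.

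The 3 catalytic subunits called, Pik3ca, Pik3cb and Pik3c2b, were lower after etoposide. Pik3ca read 11.62, 11.67 and 11.61 in differentiated and 11.08, 10.61 and 10.78 in etoposide-treated WT-TAF3 sh-PIP4K2B cells, a fall of 1.76-fold (-0.81, SE 0.11, adjusted p = 1.31e-05). It also fell in KK-TAF3 sh-PIP4K2B cells (-0.61, and -0.46 and no longer called with the array median as a covariate), and in control cells it differed by -0.44, past the adjusted test (adjusted p = 0.00499) but under 1.4-fold, a limit it passed with that covariate or without the first etoposide array. Pik3cb (-0.65) and the class II enzyme Pik3c2b (-0.51) fell in WT-TAF3 sh-PIP4K2B cells. They differed by -0.20 and -0.41 in control cells, and by -0.47 and -0.46 in KK-TAF3 sh-PIP4K2B cells, where both passed the adjusted p (adjusted p = 0.000594 and 0.00125) and were called with centring or without the second etoposide array. Their interactions with depletion were -0.45 and -0.10. The call of Pik3c2b was lost without the first differentiated array of that genotype, at -0.48. Pik3cd, the p110delta subunit, went the other way without reaching 1.4-fold, at 0.44 in WT-TAF3 sh-PIP4K2B cells (SE 0.10, adjusted p = 0.00209) and 0.33 in KK-TAF3 sh-PIP4K2B cells (adjusted p = 0.0178). It was called higher in the former without the third differentiated array or the first etoposide array. Pik3c2a was called in WT-TAF3 sh-PIP4K2B cells only with centring or without the first or the third etoposide array, and Pik3cg and Pik3c3, which encodes the class III enzyme of autophagy, were called in no genotype.

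Of the kinases that act on other positions, Pip4k2a and Pikfyve fell in WT-TAF3 sh-PIP4K2B cells. Pip4k2a was lower by 0.58 on the log2 scale there (-0.58, SE 0.07, adjusted p = 4.06e-06) and differed by -0.23 in control cells and -0.46 in KK-TAF3 sh-PIP4K2B cells. Both smaller differences passed the adjusted p under 1.4-fold, and that in KK-TAF3 sh-PIP4K2B cells was called with centring. In WT-TAF3 sh-PIP4K2B cells Pikfyve, which makes PI(3,5)P2 from PI3P on endosomes, read 9.62, 9.81 and 9.73 and 9.42, 8.91 and 8.99 (-0.61, SE 0.11, adjusted p = 0.000461), with a wide spread after etoposide. It passed the adjusted p under 1.4-fold in KK-TAF3 sh-PIP4K2B cells. Neither Pip4k2a nor Pikfyve was called in WT-TAF3 sh-PIP4K2B cells with the array median as a covariate, nor were Pik3cb, Pik3c2b, Inpp5f and Pik3r1. Pip4k2b and Pip4k2c were not called between treatments, nor were any of the 4 PI 4-kinases or the 3 Pip5k1 genes. Pi4k2b differed by 0.39 in control cells (SE 0.08, adjusted p = 0.00169), under 1.4-fold, and by -0.04 in WT-TAF3 sh-PIP4K2B cells.

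The phosphatases that passed were Mtmr1, Sacm1l, Inpp5f and Inpp5j. Mtmr1 fell 1.87-fold in WT-TAF3 sh-PIP4K2B cells (-0.90, SE 0.09, adjusted p = 5.9e-07) and 1.69-fold in KK-TAF3 sh-PIP4K2B cells (-0.76), and differed by -0.39 in control cells, under 1.4-fold. Sacm1l (-0.75, SE 0.11, adjusted p = 5.73e-05) and Inpp5f (-0.49, SE 0.09, adjusted p = 0.000322), both Sac domain phosphatases that act on PI4P, fell in WT-TAF3 sh-PIP4K2B cells. In KK-TAF3 sh-PIP4K2B cells both passed the adjusted p under 1.4-fold. The call of Inpp5f was lost without replicate 2 or 3 of either WT-TAF3 sh-PIP4K2B group, at -0.40 to -0.48. Inpp5j, a 5-phosphatase, went the other way. It read 7.94, 7.85 and 7.87 in differentiated and 8.85, 8.76 and 8.57 in etoposide-treated WT-TAF3 sh-PIP4K2B cells, 1.79-fold higher (0.84, SE 0.10, adjusted p = 6.36e-06). It rose by 0.70 in KK-TAF3 sh-PIP4K2B cells, and by 0.47 in control cells it passed the adjusted test (adjusted p = 0.00248) just under 1.4-fold. In control cells it was called with centring, or without differentiated replicate 1 or 2 or etoposide replicate 3. The other 9 of the 10 5-phosphatases, both 4-phosphatases, Fig4, Mtm1, Mtmr2, Mtmr3, Mtmr4 and Mtmr6 were called in no genotype; among all members not called the largest differences were 0.47 for Inpp5j in control cells, -0.46 for Inpp4a in WT-TAF3 sh-PIP4K2B cells (called with centring or without the first etoposide array) and -0.48 for Pik3r2 in KK-TAF3 sh-PIP4K2B cells.

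**Figure D4:**
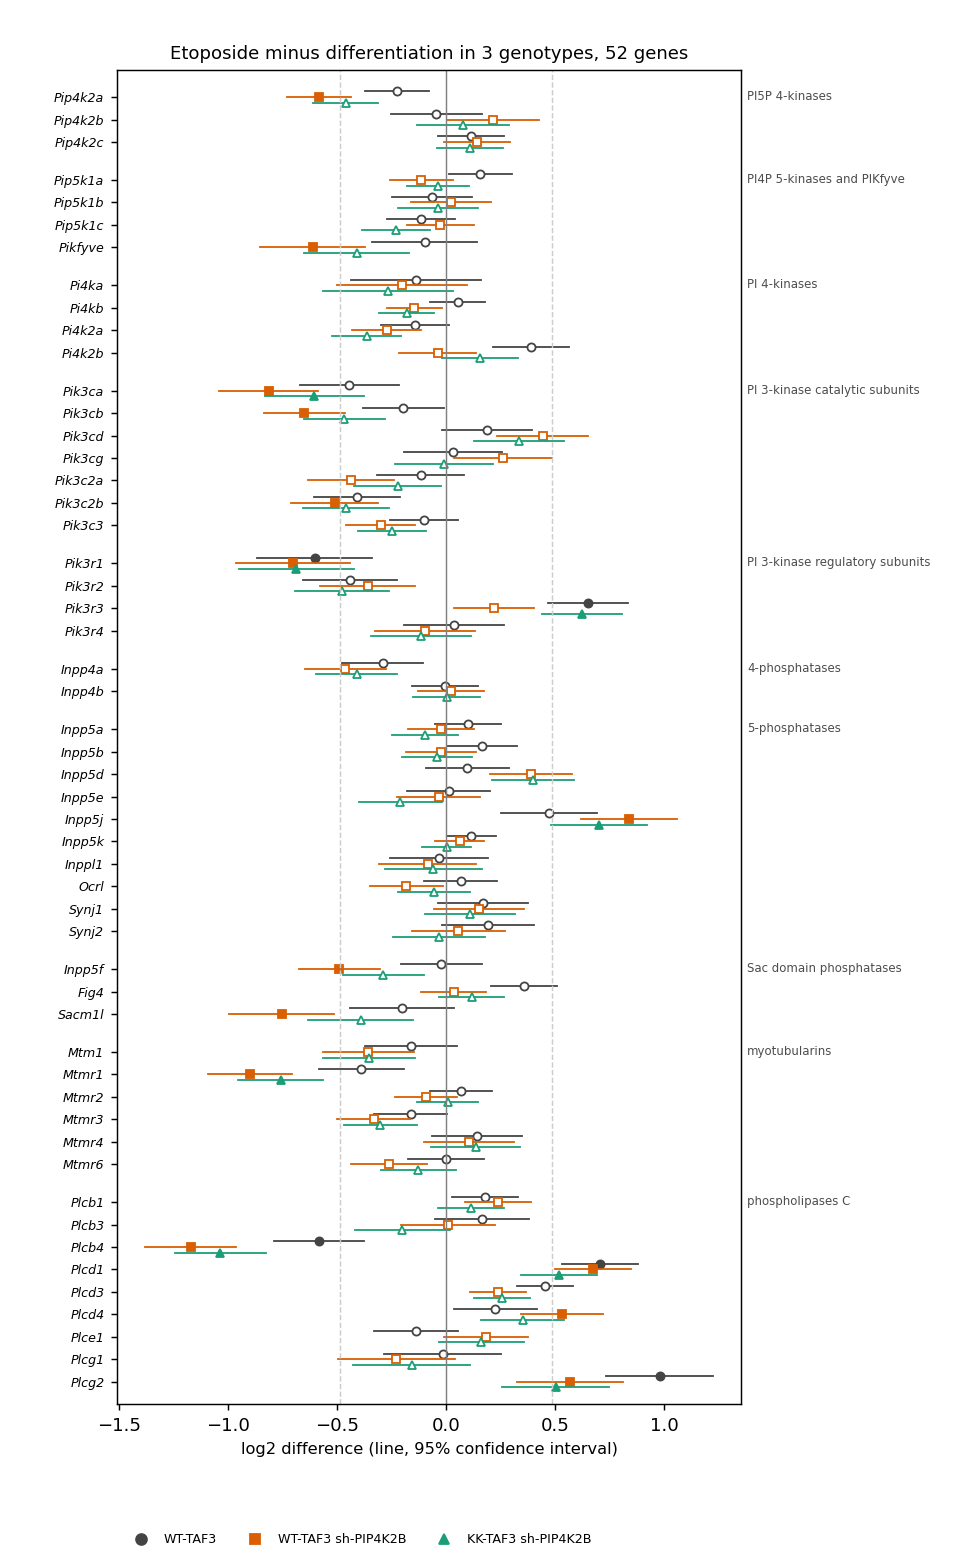
Difference in log2 signal between etoposide-treated and differentiated cells for each of the 52 genes, grouped by role, in WT-TAF3 control (circles), WT-TAF3 sh-PIP4K2B (squares) and KK-TAF3 sh-PIP4K2B cells (triangles); lines are 95% confidence intervals, filled symbols are called genes and dashed lines mark 1.4-fold. Plcb4, Pik3r1, Plcd1 and Plcg2 are filled in all genotypes, and most other filled symbols are those of WT-TAF3 sh-PIP4K2B cells on the left.

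Over all 52 members the median difference between treatments was 0.0054 in control cells, -0.062 in WT-TAF3 sh-PIP4K2B cells and -0.078 in KK-TAF3 sh-PIP4K2B cells, against -0.052, 0.066 and 0.032 for all genes. With the array median as a covariate the value for WT-TAF3 sh-PIP4K2B cells was 0.058 in place of -0.062, and with centring it was -0.17. Of the 52 members 36 had 1 sign in all genotypes, a count that was not made for all genes. The 3 differences share no arrays, since each has its own differentiated and etoposide groups.

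Outside the 52 genes, 55 others of phosphoinositide and inositol phosphate metabolism and signalling were followed, from a list of further enzymes, binding proteins and downstream kinases. On depletion 1 was called, in differentiated cells, 1.82% of the 55 beside 1.06% of all genes: Sgk3, a kinase recruited to membranes by PI3P, rose from 7.87, 8.11 and 8.03 to 8.50, 8.65 and 8.44 (0.53, SE 0.11, adjusted p = 0.0135). None was called in the KK-TAF3 comparisons or on depletion after etoposide by limma. Between treatments Dgka and Dgkd, diacylglycerol kinases that remove the product of phospholipases C, were called in every genotype and in opposite directions. Dgkd read 9.90, 9.90 and 9.82 and 9.13, 9.13 and 8.98 in control cells (-0.79, SE 0.09, adjusted p = 1.7e-06), whereas Dgka read 11.02, 11.00 and 10.91 and 11.63, 11.56 and 11.52 (0.59, SE 0.06, adjusted p = 1.46e-06). Mtmr11, a myotubularin relative, rose in control cells (0.68), while Sbf2, another, fell in both depleted genotypes (-0.61 and -0.63), as did Phlpp1, a phosphatase of Akt (-0.63 and -0.51). Prkce fell in KK-TAF3 sh-PIP4K2B cells (-0.49). Of the 55, called genes thus numbered 3 in control cells, 4 in WT-TAF3 sh-PIP4K2B cells and 5 in KK-TAF3 sh-PIP4K2B cells. These are 5.45%, 7.27% and 9.09%, near the 7.63%, 9.95% and 8.33% of all genes.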

How the data were processed

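RNA of 18 samples in 6 groups of 3, called biological triplicates by the study, was hybridised to Affymetrix mouse arrays. The deposited log2 values were made by the authors with RMA in Affymetrix Expression Console, whose version is not given in the sources used here. RMA subtracts background, forces the arrays to a common distribution and summarises probes, so differences are relative to the whole array. Values were used as deposited. Genes were named from an annotation of an earlier chip than the one the study's text names; of 35556 transcript clusters, 21789 had 1 symbol, and the brightest cluster per gene was kept (19938 genes). Groups came from the labels.

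One linear model of 6 group means was fitted with limma 3.58.1 in R 4.3.3 (12 residual and 6.05 prior degrees of freedom) and checked on simulated data. Calls needed a Benjamini-Hochberg adjusted p under 0.05 over all genes and 1.4-fold. The study states a p under 0.05 and 1.4-fold, and names neither a test nor an adjustment. Intervals are 95%. Alternatives were other call rules, fewer groups, a trended robust prior, every cluster, genes above the median signal, array medians as a covariate or as a centre, a replicate block, and each array left out. Named with values were the 3 PI5P 4-kinases, members called on depletion, for KK-TAF3 or in an interaction, those called between treatments in control cells, and the brightest and dimmest of each role. Members called between treatments only in depleted genotypes, or past the adjusted p alone, were named after their values were seen. The members and lists were chosen with earlier results of these data known. Arrays give no read depth: 3 arrays a group limit the precision. Promoters were read from RefSeq windows on GRCm38.p6 with Python 3.11.15.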

Additional observations from a re-analysis of the deposited data

Results flagged for a closer look

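The effect of PIP4K2B depletion differed between etoposide-treated and differentiated WT-TAF3 cells by the interaction term of limma for 8 members: Plcb4 (-0.59), Sacm1l (-0.55), Mtmr1 (-0.51), Inpp5f (-0.47), Pik3cb (-0.45), Pi4k2b (-0.43), Pik3r3 (-0.43) and Pip4k2a (-0.35). Of the other phosphoinositide-related genes Prkcq, a protein kinase C, differed the opposite way (0.63). All are log2 differences of differences with an adjusted p under 0.05, and the first 3 and Prkcq exceeded 1.4-fold. None of the members' interactions passed with array medians as a covariate at 1.4-fold, and the cause was not tested.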

How the results depend on the processing

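The fall of Pip4k2b was called in 4 of 4 comparisons under every alternative run, and the calls of Pik3r3 (differentiated) and Plcg2 (etoposide) on depletion were kept as well. No called gene changed direction. The members' median difference, which carries no test, changed sign with array medians as a covariate in 7 of 11 comparisons, among them depletion after differentiation (0.063 to -0.022), treatments in control (0.0054 to -0.0013) and WT-TAF3 sh-PIP4K2B cells (-0.062 to 0.058), and the interaction (-0.15 to 0.011). With arrays centred on their medians it changed sign in 0 of 11. With the adjusted p and no fold limit the members called numbered 5 on depletion after differentiation (6.14% of all genes), 3 each in KK-TAF3 sh-PIP4K2B against control cells after differentiation and after etoposide (8.66% and 3.09%), 15, 26 and 26 between treatments in control, WT-TAF3 sh-PIP4K2B and KK-TAF3 sh-PIP4K2B cells (23.1%, 34.7% and 25.4%), and 8 for the interaction of depletion with treatment (6.67%). Array medians as a covariate left 8 members called between treatments in WT-TAF3 sh-PIP4K2B cells (7.28% of all genes, from 9.95%) and 0 for the interaction (0.481%, from 4.02%). The interaction gave 0 with every transcript cluster (0.771% of all clusters), 1 with only the groups compared (2.28% of all genes) and 9 with arrays centred on their medians (6.80%), so all genes moved likewise. Centring moved the median interaction of all genes by -0.14, and that of all genes between treatments in WT-TAF3 sh-PIP4K2B cells by -0.11. Relative to all genes the members' median interaction was -0.19 with and without centring, and 0.0031 with the covariate. In WT-TAF3 sh-PIP4K2B cells between treatments centring gave 2 higher and 12 lower, against 4 and 10. The cause of these changes was not tested.

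Leaving out single arrays gave 1 to 2 calls in KK-TAF3 sh-PIP4K2B against control cells after etoposide, with Plcg2 joining without control etoposide replicate 3 or KK-TAF3 etoposide replicate 2. For the interaction it gave 0 to 9, with 0.903% to 13.4% of all genes called: 0 without differentiated control replicate 1 or 2, control etoposide replicate 1, or replicate 2 of WT-TAF3 sh-PIP4K2B cells in either treatment, 1 without control etoposide replicate 2 or replicate 3 of WT-TAF3 sh-PIP4K2B cells in either treatment, and 9 without etoposide replicate 1 of the latter genotype. The other counts stayed within 1.5 times their value, including 0 throughout for KK-TAF3 against WT-TAF3. Plcg2 lost its call between treatments in WT-TAF3 sh-PIP4K2B cells with centring, Plcg2 and Plcd1 lost theirs between treatments in KK-TAF3 sh-PIP4K2B cells without etoposide replicate 1 or 2 and with centring, Pik3ca lost its call there and gained one in control cells with the covariate, and Pik3r1 lost its call in control cells without etoposide replicate 3.

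The labels number the replicates 1 to 3 in each group. Same-numbered arrays did not deviate together (median r 0.030 over 45 pairs, 16 of them above 0.1, and 6 of 18 arrays correlated best with their own number), so the numbers were not taken as pairs. With the replicate number as a block the interaction gave 2 calls, losing Sacm1l, and no other count changed.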
